A study of Rattus norvegicus with 12 samples.

Results

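Transcripts of the enzymes that attach glucuronic acid, sulfate or glutathione to other molecules were followed in rat hepatocytes after the death of the donor. A probe set was included when the platform annotation gave it a single gene symbol beginning with Ugt and a digit, Sult, Gsta, Gstk, Gstm, Gsto, Gstp, Gstt or Gstz. This held for 47 probe sets of 43 genes among the 31042 tested: 11 Ugt, 15 Sult and 21 Gst probe sets. Each of 12 arrays held the hepatocytes of 1 animal of the strain given as Fischer 334. The livers were perfused with collagenase and the cells went to RNA extraction uncultured. The 3 control donors were heart-beating, and the other 3 groups of 3 different donors had been dead for 4, 16 or 30 h; no treatment, age or sex is given. All values are deposited log2 signals, with n = 3 arrays per group throughout. A call means an adjusted p under 0.05 from limma, with the Benjamini-Hochberg adjustment over all 31042 probe sets.

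Conjugation, called phase II of drug metabolism, makes drugs, hormones, bilirubin, bile acids and reactive electrophiles more water-soluble, so that transporters can move them into bile or blood. The UDP-glucuronosyltransferases (Ugt) sit in the endoplasmic reticulum and take glucuronic acid from UDP-glucuronate. The cytosolic sulfotransferases (Sult) take sulfate from the activated donor PAPS, and the glutathione S-transferases (Gst) join the tripeptide glutathione to electrophiles. The hepatocyte is the main site of all of these reactions, and the genes are known to respond to the nuclear receptors CAR, PXR and HNF4A and to the oxidative-stress factor NRF2.

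Some facts of the whole series bear on every value. All 12 hepatocyte markers listed were above the median probe set, and 4 of them were called lower at 30 h, with none called higher. By the brightest probe set of each of 14217 genes, 12.5% were called higher and 10.5% lower at 30 h. Markers of other cells also moved: at 30 h, 7 of 10 Kupffer cell markers were called lower. Called higher were 5 of 10 stellate cell or fibroblast, 1 of 8 endothelial and 4 of 5 erythroid markers, while none of 7 lymphocyte markers was called. At 16 h, 4.3% of these genes were called higher and 1.3% lower. Then 5 of 10 Kupffer cell markers were called lower, and 2 of 10 stellate cell or fibroblast, 3 of 8 endothelial and 3 of 5 erythroid markers higher. Summed over its list, the signal of hepatocyte markers ranged from 95497 to 97484 in heart-beating donors and from 84287 to 90771 at 30 h, that of Kupffer cell markers from 4926 to 5275 and 3109 to 3777, that of stellate cell or fibroblast markers from 2494 to 3488 and 3924 to 5273, and that of erythroid markers from 4265 to 5329 and 13678 to 20550. The summed signal of endothelial markers ranged from 2376 to 2686 in heart-beating donors and from 2216 to 3473 at 30 h. The part of these cells in the results below was not tested. The log2 signal of Gapdh near its 3' end minus that near its 5' end, a measure of RNA integrity, was 0.39 ± 0.08 (SD) in the control arrays, then 0.38 ± 0.10 after 4 h, 1.05 ± 0.20 after 16 h and 1.97 ± 0.29 after 30 h, so RNA integrity and time after death cannot be told apart. In bulk RNA, fewer cells of a type and less RNA per cell cannot be told apart either. Probe sets of paralogs as alike as these may share hybridising RNA, and "brightest" below names the probe set with the highest mean signal, which does not rank the transcripts.

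At 4 h no conjugating enzyme was called: limma found 0 of the 47 probe sets, with 9 at an unadjusted p under 0.05. Across all 31042 probe sets 7 were called (0.0226%), with 1637 at an unadjusted p under 0.05. The median log2 difference from heart-beating donors was -0.00 over the 47 and 0.00 over all. At 16 h 1 of the 47 rose and 4 fell, against 3.18% of all probe sets called higher and 1.49% called lower; the split was 2 and 4 with median centring and 0 and 5 with cyclic loess. At 30 h 2 rose (4.26% of the 47) and 11 fell (23.4%), against 10.4% and 9.36% of all probe sets, and 34 were not called. The split at 30 h was 5 and 12 with cyclic loess and 5 and 10 after a further quantile normalization. The median at 30 h was -0.07 over the 47 and 0.01 over all probe sets. Of the 33 members above the median probe set, 2 rose and 9 fell at 30 h, against 16.5% called higher and 13.7% called lower among all 15521 probe sets above it. Of the 14 at or below it, 0 rose and 2 fell. Over all 31042 probe sets 3226 were called higher and 2904 lower, and 2561 and 2129 of these lay above the median. The animal numbered 1 at 30 h was the lowest of its group in 9 of the 11 that fell, and it had the largest Gapdh difference of any array (2.30, against 1.82 and 1.79 in the other 30 h animals). Without it 10 fell and 2 rose. How often this animal was lowest among all probe sets called lower at 30 h was not counted. The 9 of 11 therefore cannot be read as particular to the conjugating enzymes.

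**Figure D1:**
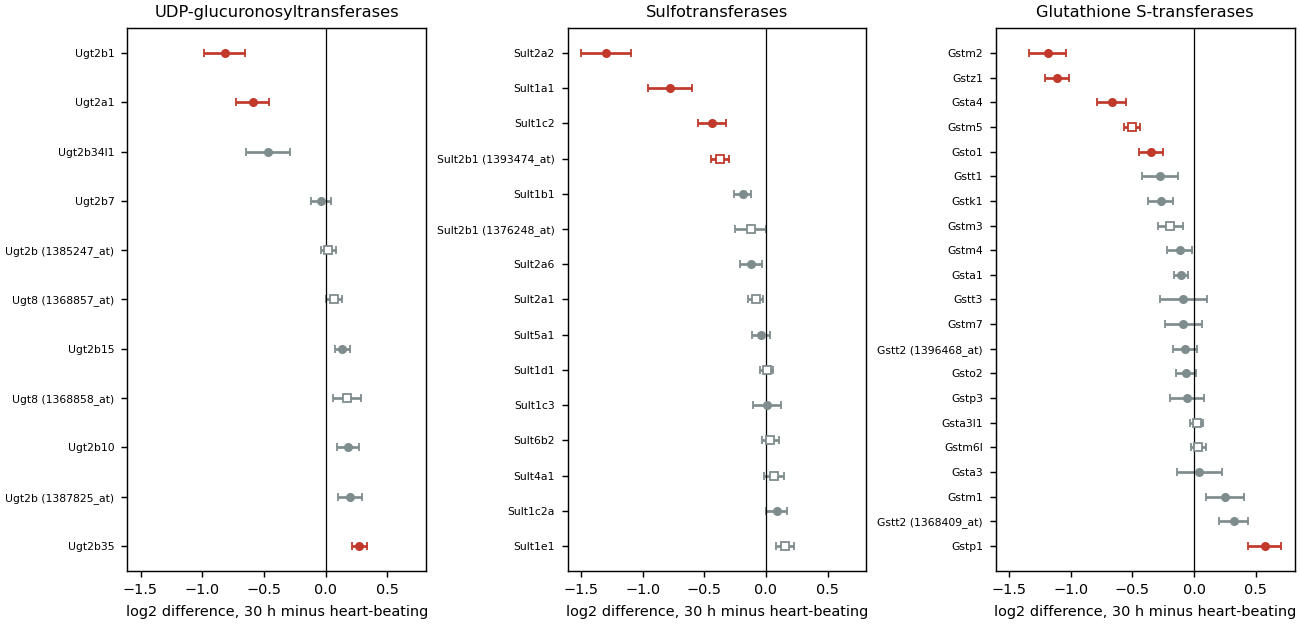
Log2 difference at 30 h minus heart-beating donors (x axis) for each of the 47 Ugt, Sult and Gst probe sets (y axis, grouped by family), with bars for the standard error from the limma fit of 12 arrays. Red marks a call at adjusted p under 0.05, grey none, and open squares mark probe sets not above the median; 11 red points lie below 0 and 2 above it.

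Among the 11 probe sets of glucuronosyltransferases, limma called none at 16 h (3 at an unadjusted p under 0.05), and at 30 h 1 rose, 2 fell and 8 were not called, with a median difference of 0.07. Of all probe sets, 3.18% were called higher and 1.49% lower at 16 h, and 10.4% and 9.36% at 30 h. The 30 h shares of the 11 were 9.09% and 18.2%, and a difference from all probe sets was not tested. Ugt2b1, a rat liver form known for the glucuronidation of morphine, read 10.78, 10.77 and 10.54 in heart-beating donors, 10.88, 10.66 and 10.57 at 4 h, 10.47, 10.74 and 10.46 at 16 h, and 9.45, 10.29 and 9.90 at 30 h. The 3 arrays of 30 h lay below all 9 others, which overlapped each other. The difference at 30 h was -0.82 (SE 0.17, limma adjusted p = 0.004), and between 16 and 30 h it was -0.68 (SE 0.17, adjusted p = 0.0216). The fall between 16 and 30 h was no longer called without animal 1 (-0.72) or 2 (-0.59) of 16 h, without animal 1 of 30 h (-0.47), or with only the groups compared (-0.68). Ugt2a1, best known from the olfactory epithelium, read 6.23, 6.31 and 6.16 in heart-beating donors, 6.07, 6.50 and 6.08 at 4 h, 5.95, 5.78 and 5.83 at 16 h, and 5.36, 5.91 and 5.66 at 30 h. It fell by 0.59 at 30 h (SE 0.14, adjusted p = 0.00798), and its arrays of 16 h and 30 h overlapped.

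Ugt2b35, the brightest Ugt probe set, moved the other way. It read 12.28, 12.30 and 12.32 in heart-beating donors, 12.21, 12.20 and 12.23 at 4 h, 12.38, 12.49 and 12.53 at 16 h, and 12.65, 12.61 and 12.47 at 30 h. The groups spread little, and all 6 arrays of 16 and 30 h lay above all 6 of the earlier groups. It rose by 0.27 at 30 h (SE 0.06, adjusted p = 0.00948), and from 4 to 16 h by 0.25 (adjusted p = 0.0328). The second call was lost on leaving out any 4 h animal (0.24 to 0.26), animal 2 or 3 of 16 h (0.24 and 0.22) or heart-beating donor 3 (0.25), and with cyclic loess (0.23), a further quantile normalization (0.23) or the variance trend (0.25). Ugt2b10 read 11.29, 11.01 and 11.20 in heart-beating donors, 11.01, 10.81 and 10.84 at 4 h, 11.43, 11.58 and 11.47 at 16 h, and 11.21, 11.39 and 11.43 at 30 h. It rose by 0.60 from 4 to 16 h (SE 0.09, adjusted p = 0.00182), the largest difference of an Ugt between these times, and against heart-beating donors it stood 0.33 higher at 16 h and 0.18 higher at 30 h, neither called. The remaining Ugt probe sets were not called in any comparison with heart-beating donors. Ugt2b15 differed by 0.13 at 30 h, Ugt2b34l1 by -0.47 (SE 0.18, adjusted p = 0.0829), Ugt2b7 by -0.04, and the probe sets of Ugt2b by 0.20 and 0.02. Ugt8, which transfers galactose to ceramide in myelin-forming cells, was not above the median probe set in either of its probe sets, which differed by 0.17 and 0.07.

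The bilirubin- and phenol-conjugating Ugt1a forms share most of their exons, and no probe set carried a single Ugt1 symbol. Each of the 2 probe sets assigned to 8 Ugt1a genes together lay outside the rule. One of them read 10.43, 10.62 and 10.65 in heart-beating donors, and 9.67, 10.21 and 9.64 at 30 h, with no overlap; it fell by 0.73 (SE 0.12, adjusted p = 0.00133). The other read 11.71, 11.996 and 11.93 in heart-beating donors and 11.60, 12.004 and 11.52 at 30 h, and was not called (-0.17, SE 0.11, adjusted p = 0.322). The 2 probe sets of the same genes thus gave different calls; the difference between them was not tested.

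Among the 15 probe sets of sulfotransferases, 1 fell at 16 h, and at 30 h none rose, 4 fell and 11 were not called, with a median difference of -0.08. The share called lower was 6.67% at 16 h and 26.7% at 30 h, against 1.49% and 9.36% of all probe sets. Called higher were 3.18% and 10.4% of all probe sets. A difference from all probe sets was not tested. Sult2a2, a hydroxysteroid sulfotransferase of the rat that acts on steroid alcohols and bile acids, had the most negative difference of the 47 at 30 h. It read 11.77, 12.29 and 11.94 in heart-beating donors, 12.13, 12.29 and 11.87 at 4 h, 11.55, 10.97 and 11.29 at 16 h, and 10.25, 11.07 and 10.80 at 30 h. All 6 arrays of 16 and 30 h lay below all 6 earlier ones. The difference was -1.29 at 30 h (SE 0.20, adjusted p = 0.00077), or 2.45-fold lower, and -0.73 at 16 h (SE 0.20, adjusted p = 0.0587, not called). It fell by 0.83 from 4 to 16 h (adjusted p = 0.0256), a call lost without animal 1 (-0.81) or 2 (-0.73) of 4 h or animal 2 (-0.68) or 3 (-0.84) of 16 h. Its paralog Sult2a6 read 12.39, 12.40 and 12.43 in heart-beating donors, 12.29, 12.39 and 12.04 at 4 h, 12.38, 12.40 and 12.52 at 16 h, and 12.31, 12.37 and 12.17 at 30 h. Sult2a6 was not called in any of the 5 comparisons (-0.12 at 30 h, SE 0.09). The change of Sult2a2 was not tested against that of Sult2a6.

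The promoter windows of these 2 paralogs are shown because the genes gave different calls beside sequence that is largely alike. Each window is the 250 bases before the annotated start, 5' to 3' on the gene's strand, from RefSeq (GRCr8), chr1:85104533-85104782 for Sult2a2 and chr1:84097809-84098058 for Sult2a6, both on the minus strand; capitals mark TATAAA, the core of a TATA box.
Sult2a2: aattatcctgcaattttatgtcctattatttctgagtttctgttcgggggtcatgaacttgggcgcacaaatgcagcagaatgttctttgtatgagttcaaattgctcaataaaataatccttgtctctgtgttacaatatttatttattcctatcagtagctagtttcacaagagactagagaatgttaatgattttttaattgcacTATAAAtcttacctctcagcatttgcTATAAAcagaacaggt
Sult2a6: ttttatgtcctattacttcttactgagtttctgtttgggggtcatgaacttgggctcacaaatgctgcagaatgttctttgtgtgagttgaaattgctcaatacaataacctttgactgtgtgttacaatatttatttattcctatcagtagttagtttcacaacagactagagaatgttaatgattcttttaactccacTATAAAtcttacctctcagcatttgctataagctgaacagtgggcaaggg
An alignment of both windows had 215 identical bases (86% of the window), 26 mismatches and 18 gap positions. TATAAA, searched on both strands, ended 37 and 11 bases before the start in Sult2a2 and 45 bases before it in Sult2a6. It was present in 11 of the 37 genes with a window (29.7%) and in 12.9% of all 33469 windows of this length. Only bases before the start were searched, and such a match is a run of letters, not a measured site.

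Sult1a1, the main phenol sulfotransferase of liver, read 12.17, 12.17 and 12.15 in heart-beating donors, 12.19, 12.30 and 12.15 at 4 h, 11.81, 11.69 and 11.49 at 16 h, and 10.86, 11.46 and 11.84 at 30 h. The controls lay within a narrow range, and the 30 h arrays spread most of all groups. It fell by 0.78 at 30 h (SE 0.18, adjusted p = 0.00788). Without animal 1 of 30 h the value was -0.51, still called. Sult1b1, which sulfates thyroid hormones and phenols, read 12.31, 12.49 and 12.37 in heart-beating donors, 12.32, 12.34 and 12.26 at 4 h, 11.93, 11.87 and 12.06 at 16 h, and 12.16, 12.24 and 12.21 at 30 h. It was lowest at 16 h, where no array overlapped any other group. It fell by 0.44 at 16 h against heart-beating donors (SE 0.07, adjusted p = 0.00506) and by 0.36 against 4 h (adjusted p = 0.00824), and rose by 0.25 from 16 to 30 h (adjusted p = 0.0383), where it was no longer called against the controls (-0.19, adjusted p = 0.0785). The rise was lost on leaving out any animal of 30 h (0.23 to 0.27), animal 1 or 2 of 16 h (0.24 and 0.21), animal 1 or 2 of 4 h (0.25 each) or heart-beating donor 3 (0.25), and with median centring (0.23), the variance trend (0.25) or only the groups compared (0.25).

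Sult1c2 read 8.56, 8.57 and 8.32 in heart-beating donors, 8.53, 8.56 and 8.51 at 4 h, 8.97, 8.70 and 8.42 at 16 h, and 8.04, 8.02 and 8.08 at 30 h. The 30 h arrays were close together and below all others. It fell by 0.44 at 30 h against the controls (SE 0.11, adjusted p = 0.0157), a call lost without heart-beating donor 1 (-0.40) or 2 (-0.39), and by 0.65 from 16 to 30 h (adjusted p = 0.00371). A further probe set that the annotation gives to Sult1c2 and another gene together was lower by 0.47 at 30 h (SE 0.10, adjusted p = 0.0055). Sult1c2a (0.09) and Sult1c3 (0.01) were not called at 30 h. Sult2b1, which sulfates cholesterol and pregnenolone and is known mainly from skin, was below the median probe set. Its brighter probe set read 5.11, 5.25 and 5.12 in heart-beating donors and 4.72, 4.89 and 4.76 at 30 h, a fall of 0.37 (SE 0.07, adjusted p = 0.0025). It also fell by 0.26 from 16 to 30 h (adjusted p = 0.0312), a call lost without animal 1 (-0.22) or 3 (-0.27) of 16 h or animal 1 (-0.23) or 3 (-0.25) of 30 h, or with only the groups compared (-0.26). The other Sult2b1 probe set was not called at 30 h (-0.12), and fell by 0.49 from 4 to 16 h (adjusted p = 0.0319), a call that was lost without any 1 of the 6 arrays of these times (-0.54 to -0.44) and with median centring (-0.46), cyclic loess (-0.44) or a further quantile normalization (-0.44). The remaining Sult probe sets were not called in any comparison; Sult5a1, above the median probe set, differed by -0.04 at 30 h, and Sult1d1, Sult1e1, Sult2a1, Sult4a1 and Sult6b2 were not above it.

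**Figure D2:**
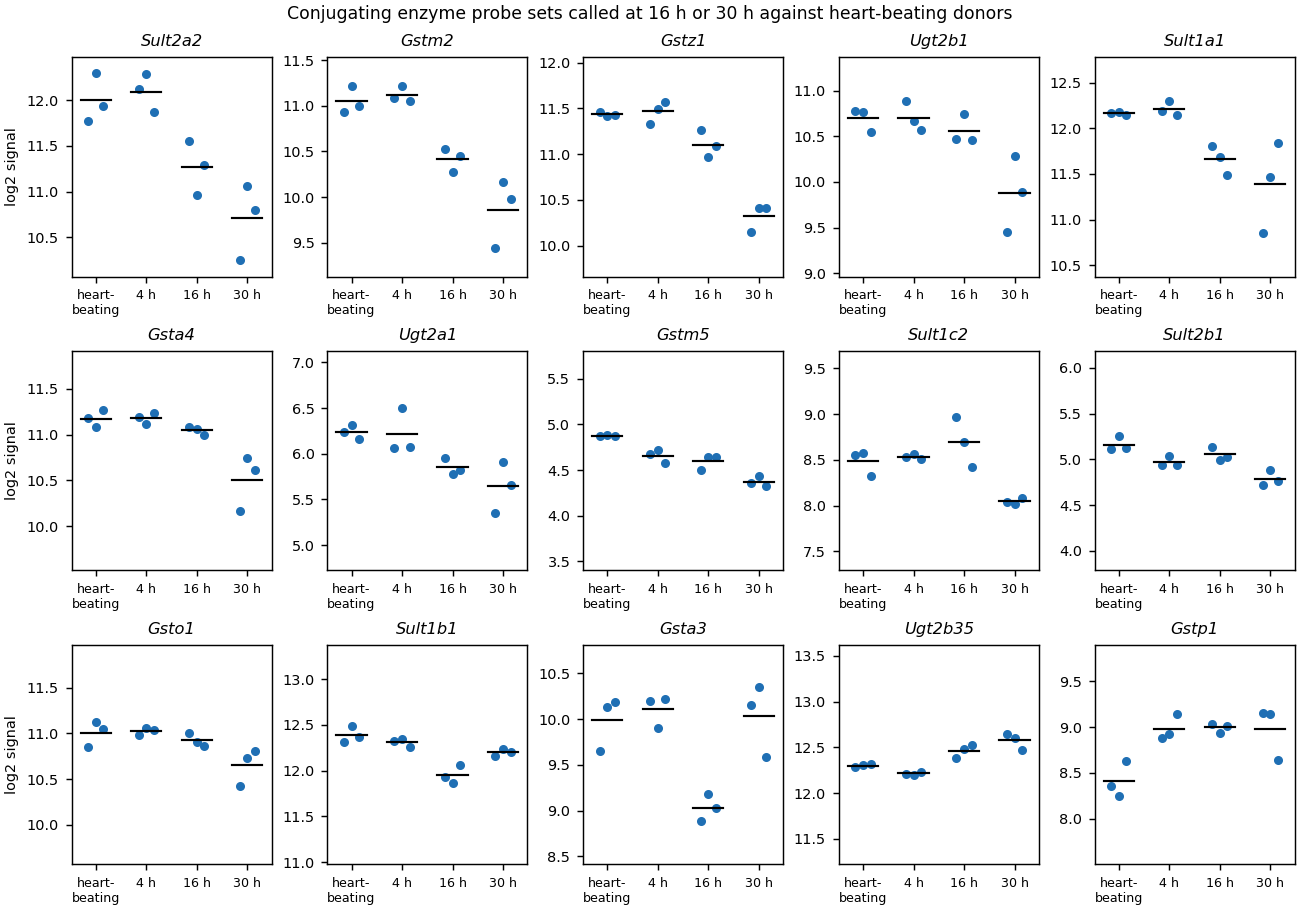
Log2 signal (y axis, 2.4 log2 units in each panel) by group (x axis: heart-beating donors, 4, 16 and 30 h after death) for 15 Ugt, Sult and Gst probe sets called at 16 or 30 h against heart-beating donors. Points are single arrays and lines are means of 3; Gsta3 and Sult1b1 are lowest at 16 h, while Sult2a2, Gstm2 and Gstz1 are lowest at 30 h.

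Among the 21 probe sets of glutathione S-transferases, 1 rose and 3 fell at 16 h, and 1 rose, 5 fell and 15 were not called at 30 h, with a median difference of -0.09. At 16 h 4.76% were called higher and 14.3% lower, against 3.18% and 1.49% of all probe sets. At 30 h the shares were 4.76% and 23.8%, against 10.4% and 9.36%. A difference from all probe sets was not tested. Gstz1, maleylacetoacetate isomerase of tyrosine breakdown, read 11.46, 11.41 and 11.43 in heart-beating donors, 11.33, 11.50 and 11.57 at 4 h, 11.26, 10.97 and 11.09 at 16 h, and 10.15, 10.41 and 10.42 at 30 h. The 30 h arrays lay below those of 16 h, which lay below all 6 earlier ones. The difference was -1.11 at 30 h (SE 0.09, adjusted p = 1.27e-05), or 2.16-fold lower, and -0.78 between 16 and 30 h (adjusted p = 0.000458). It fell by 0.36 from 4 to 16 h (adjusted p = 0.0331), a call lost without animal 2 (-0.35) or 3 (-0.31) of 4 h, animal 2 (-0.29) or 3 (-0.35) of 16 h or heart-beating donor 3 (-0.36), or with median centring (-0.33).

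Gstm2, a mu-class subunit, read 10.93, 11.22 and 11.00 in heart-beating donors, 11.08, 11.21 and 11.06 at 4 h, 10.52, 10.27 and 10.46 at 16 h, and 9.45, 10.16 and 9.98 at 30 h. Each later group lay below the ones before it from 4 h on, with no overlap. It fell by 0.63 at 16 h (SE 0.15, adjusted p = 0.0285) and by 1.19 at 30 h (SE 0.15, adjusted p = 0.000162), or 2.28-fold. The call at 16 h was lost without heart-beating donor 2 (-0.55) or 3 (-0.66) or any animal of 16 h (-0.69 to -0.56). Between times it fell by 0.70 from 4 to 16 h (adjusted p = 0.0122; lost without animal 2 of 4 h, -0.65, or of 16 h, -0.63). It fell by 0.55 from 16 to 30 h (adjusted p = 0.0312; lost without animal 1, -0.50, or 3, -0.53, of 16 h or animal 1 of 30 h, -0.34, or with only the groups compared, -0.55). Gstm1, the brightest mu-class probe set and the next gene to Gstm2 in the RefSeq order, read 10.96, 11.57 and 11.30 in heart-beating donors and 11.37, 11.78 and 11.44 at 30 h, overlapping, and was not called (0.25, SE 0.15). Gstm5, not above the median probe set, read 4.87, 4.89 and 4.87 in heart-beating donors, 4.67, 4.72 and 4.58 at 4 h, 4.50, 4.65 and 4.64 at 16 h, and 4.36, 4.44 and 4.32 at 30 h. It fell by 0.50 at 30 h (SE 0.07, adjusted p = 0.000209) and by 0.28 at 16 h (SE 0.07, adjusted p = 0.0287), and the second call was lost without any heart-beating donor (-0.28 to -0.27) or without animal 1 (-0.23) or 2 (-0.30) of 16 h, and with cyclic loess (-0.24) or a further quantile normalization (-0.24). It also fell by 0.22 from 16 to 30 h (adjusted p = 0.0454), a call lost with only the groups compared (-0.22) and without any heart-beating donor (-0.22), animal 1 or 2 of 4 h (-0.22), animal 2 or 3 of 16 h (-0.20) or animal 1 (-0.22) or 3 (-0.20) of 30 h. Of the other mu-class genes, Gstm7 fell by 0.54 from 4 to 16 h (adjusted p = 0.0408; lost without any animal of 4 or 16 h, -0.62 to -0.42, or without heart-beating donor 3, -0.54, or with median centring, -0.51), while Gstm3, Gstm4 and Gstm6l were not called in any comparison.

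Gsta3, an alpha-class subunit, was low at 16 h and not at 30 h. It read 9.65, 10.13 and 10.19 in heart-beating donors, 10.19, 9.91 and 10.22 at 4 h, 8.88, 9.19 and 9.03 at 16 h, and 10.16, 10.35 and 9.59 at 30 h. The 3 arrays of 16 h lay below all 9 others, and the 30 h arrays overlapped the controls. It fell by 0.96 at 16 h against heart-beating donors (SE 0.18, adjusted p = 0.011), a call lost without heart-beating donor 3 (-0.86) or animal 1 of 16 h (-0.88). It fell by 1.07 from 4 to 16 h (adjusted p = 0.00395) and rose by 1.00 from 16 to 30 h (adjusted p = 0.00488), and leaving out any 1 array ended neither of these calls. At 30 h it differed from the controls by 0.04 (adjusted p = 0.914). Gsta4, which conjugates the lipid peroxidation product 4-hydroxynonenal, read 11.18, 11.08 and 11.27 in heart-beating donors, 11.19, 11.12 and 11.24 at 4 h, 11.09, 11.06 and 11.00 at 16 h, and 10.17, 10.75 and 10.61 at 30 h. The 30 h arrays lay below all others. It fell by 0.67 at 30 h (SE 0.12, adjusted p = 0.00152) and by 0.54 from 16 to 30 h (adjusted p = 0.0116), the latter lost without animal 1 of 16 h (-0.52) or with only the groups compared (-0.54). Gsta1, the brightest Gst probe set, read 12.89, 12.93 and 12.93 in heart-beating donors and 12.83, 12.84 and 12.76 at 30 h, and was not called (-0.11, SE 0.06, adjusted p = 0.213). A probe set shared by Gsta5 and Gsta2 was not called either (-0.28, adjusted p = 0.0791).

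Gstp1, the pi-class enzyme whose protein is a marker of preneoplastic foci in rat liver and which bile duct cells also make, was the single Gst called higher than in heart-beating donors. It read 8.36, 8.25 and 8.62 in heart-beating donors, 8.88, 8.92 and 9.14 at 4 h, 9.04, 8.94 and 9.02 at 16 h, and 9.16, 9.15 and 8.64 at 30 h. All 9 arrays of dead donors lay above the 3 controls, animal 3 of 30 h by little. The difference was 0.57 at 4 h (SE 0.13, adjusted p = 0.522, not called), 0.59 at 16 h (SE 0.13, adjusted p = 0.0252) and 0.57 at 30 h (SE 0.13, adjusted p = 0.00904). The call at 16 h was lost without heart-beating donor 1 (0.56) or 2 (0.51) or any animal of 16 h (0.57 to 0.62), and with cyclic loess (0.52) or a further quantile normalization (0.50). The call at 30 h was lost with array weights (0.39). Of 8 cholangiocyte markers 6 were measured, 3 of the 6 were not above the median probe set, and none was called in any comparison. Their summed signal lay between 334 and 340 in the control arrays, 325 and 344 in those of 4 h, 331 and 339 in those of 16 h, and 333 and 376 in those of 30 h. The part of bile duct cells or other cell types in the rise of Gstp1 was not tested. Gstp3 read 12.42, 11.97 and 12.60 in heart-beating donors, 12.04, 11.79 and 12.04 at 4 h, 12.58, 12.54 and 12.43 at 16 h, and 12.37, 12.34 and 12.11 at 30 h. It was not called against the controls (-0.06 at 30 h), and rose by 0.56 from 4 to 16 h (adjusted p = 0.0237), a call lost without animal 2 of 4 h (0.48) or animal 1 (0.53) or 2 (0.55) of 16 h.

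The promoter windows of the 3 Gst genes above the median probe set that hold the antioxidant response element core and were called against heart-beating donors are shown, since they differ in direction. Gstp1 rose at 16 and 30 h, Gstz1 fell at 30 h and Gsta3 fell at 16 h. The core, the DNA letters known to bind NRF2 with its partners, was searched as TGACNNNGC on both strands. The windows are the 250 bases before the annotated start from RefSeq (GRCr8): chr1:210769706-210769955 on the minus strand for Gstp1, chr9:31154739-31154988 on the plus strand for Gsta3, at the outer of its 2 annotated starts, and chr6:112525356-112525605 on the plus strand for Gstz1. Capitals mark the core.
Gstp1: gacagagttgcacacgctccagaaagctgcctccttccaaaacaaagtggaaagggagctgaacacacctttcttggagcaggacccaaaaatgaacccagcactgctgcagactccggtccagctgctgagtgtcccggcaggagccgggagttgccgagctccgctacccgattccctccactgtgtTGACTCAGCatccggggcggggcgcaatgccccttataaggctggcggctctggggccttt
Gsta3: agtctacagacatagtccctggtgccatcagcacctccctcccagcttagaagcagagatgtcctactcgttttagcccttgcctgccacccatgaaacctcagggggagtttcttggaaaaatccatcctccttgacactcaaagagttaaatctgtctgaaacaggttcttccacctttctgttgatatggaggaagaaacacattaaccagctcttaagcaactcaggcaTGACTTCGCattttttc
Gstz1: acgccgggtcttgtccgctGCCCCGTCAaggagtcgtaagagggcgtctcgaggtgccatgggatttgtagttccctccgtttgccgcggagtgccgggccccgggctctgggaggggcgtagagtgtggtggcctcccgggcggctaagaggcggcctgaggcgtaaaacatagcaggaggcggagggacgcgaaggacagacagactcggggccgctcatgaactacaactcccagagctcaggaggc
The core lay 61 to 53 bases before the start in Gstp1, 17 to 9 bases before it in Gsta3, and 231 to 223 bases before it in Gstz1, there on the other strand. In Gstp1 the first 7 letters of the core also match an AP-1 site, searched as TGANTCA. The core was present in 5 of the 37 member genes with a window (13.5%: Gsta3, Gstm5, Gstm7, Gstp1 and Gstz1), and in 10.1% of all 33469 windows. The AP-1 letters were present in 3 (8.11%: Gstm5, Gstp1 and Ugt2b1), and in 6.34% of all windows. Among these genes Gstm5 fell at 16 and 30 h, Ugt2b1 fell at 30 h, and Gstm7 was not called against heart-beating donors.

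Among the omega, kappa and theta classes, Gsto1, which reduces dehydroascorbate, read 10.85, 11.12 and 11.05 in heart-beating donors and 10.42, 10.73 and 10.81 at 30 h. The groups were close without overlapping, and it fell by 0.35 (SE 0.10, adjusted p = 0.0227), a call lost without heart-beating donor 2 (-0.29) or 3 (-0.33) or animal 1 of 30 h (-0.24), or with a further quantile normalization (-0.16) or only the groups compared (-0.35). Gsto2 was not called (-0.06). Gstk1, found in mitochondria and peroxisomes, differed by -0.27 (SE 0.10, adjusted p = 0.0873). The 4 theta-class probe sets were not called in any comparison with heart-beating donors; at 30 h Gstt1 differed by -0.27, Gstt3 by -0.09, and the probe sets of Gstt2 by 0.32 and -0.07. Gsta3l1 was near the lowest signals of the array and was not called.

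Across times, 3 of the 47 rose and 7 fell from 4 to 16 h, against 5.31% of all probe sets called higher and 2.52% called lower, and 2 rose and 7 fell from 16 to 30 h, against 4.29% and 5.95%. The first split was 3 and 4 with median centring, and the second 4 and 7 after a further quantile normalization. The comparisons share arrays, since 16 h enters both. Gsta3 and Sult1b1 fell in the first interval and rose in the second. Gstm2 and Gstz1 fell in both. Ugt2b1, Gsta4, Sult1c2, Gstm5 and the brighter Sult2b1 probe set were called lower in the second interval and not in the first, where they differed by -0.15, -0.14, 0.16, -0.06 and 0.08; the difference between the intervals was not tested.

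There were 17 pairs of members that are consecutive protein-coding genes in the RefSeq order, and the difference between their changes at 30 h was tested with an exact two-sided permutation test, which cannot give a p below 0.1 with 3 arrays against 3. Of the 17, 11 had that p, and the Benjamini-Hochberg adjusted p over the 17 was 0.155 for these, so none could pass. Only some of these 11 pairs are given here, each with a member called at 30 h. Their p of 0.1 is the lowest the test can give and is no support for a difference between neighbours. Gstm2 changed by -1.19 and its neighbour Gstm1 by 0.25, a difference of -1.44 (p = 0.1, exact test). Sult2a1, not above the median probe set, changed by -0.08 and its neighbour Sult2a2 by -1.29, a difference of 1.21 (p = 0.1, exact test). Ugt2b1 changed by -0.82 and its neighbour Ugt2b10 by 0.18, a difference of -0.999 (p = 0.1, exact test). Gstp1 changed by 0.57 and its neighbour Gstp3 by -0.06, a difference of 0.63 (p = 0.1, exact test). Sult1b1 changed by -0.19 and Ugt2a1, next to it, by -0.59 (p = 0.1, exact test). Probe sets of 1 gene can part as well: at 30 h, limma called the difference between the brightest and another probe set of the same gene in 34.8% of 6609 pairs. The exact test could call no neighbour pair, so this share cannot be compared with the count of neighbour pairs. None of the 4 such pairs among the conjugating enzymes was called (Gstt2 0.39, adjusted p = 0.0555; Sult2b1 -0.25, adjusted p = 0.0999; Ugt2b 0.17; Ugt8 0.10), with 2 at an unadjusted p under 0.05.

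Around the conjugating enzymes, 66 of 71 listed genes were measured, each by its brightest probe set. limma called none at 4 h. At 16 h 4 rose (Slc35d2, Gss, Abcc2 and Hnf4a) and 2 fell (Nat1 and Nfe2l2), against 4.3% and 1.3% of 14217 genes, and at 30 h 9 rose, 15 fell and 42 were not called, against 12.5% and 10.5%.

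The cosubstrate lists came first. For UDP-glucuronate supply, 1 of 4 measured genes fell at 30 h: Ugp2, which makes UDP-glucose, read 10.79, 10.94 and 10.76 in heart-beating donors and 10.02, 10.44 and 10.49 at 30 h (-0.51, SE 0.15, adjusted p = 0.0324), a call lost without any heart-beating donor (-0.55 to -0.46) or animal 1 of 30 h (-0.36), or with a further quantile normalization (-0.35) or array weights (-0.41). Ugdh, which oxidises UDP-glucose to UDP-glucuronate, differed by 0.06, Slc35b1 by 0.13 and Slc35d2, a nucleotide sugar transporter, by 0.26, none called at 30 h. Whether Slc35b1 and Slc35d2 serve the supply of UDP-glucuronate was not tested, so the count describes the list and not that supply. Slc35d2 rose at 16 h by 0.66 (adjusted p = 0.0119), a call lost without animal 2 of 16 h (0.60). For sulfate activation, 3 of 7 rose at 30 h and none fell. The sulfate transporter Slc26a1 read 9.61, 9.76 and 9.54 in heart-beating donors and 10.04, 10.39 and 10.38 at 30 h (0.63, SE 0.11, adjusted p = 0.00161). The PAPS transporter Slc35b3 rose by 0.43 (SE 0.08, adjusted p = 0.00333), and Bpnt2, a Golgi phosphatase that clears the spent donor, by 0.41 (SE 0.06, adjusted p = 0.000832), although 2 of its 3 other probe sets were called lower. Papss1, a PAPS synthase, differed by 0.06 and was not called (limma adjusted p = 0.72). The 3 that rose were transporters and a phosphatase, so they do not show that PAPS synthesis rose.

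Of 14 genes of glutathione supply and recycling, 1 rose and 3 fell at 30 h. Gclm, the modifier subunit of the rate-limiting ligase of glutathione synthesis, read 9.06, 9.60 and 9.61 in heart-beating donors, 9.23, 8.91 and 9.36 at 4 h, 9.07, 9.07 and 9.19 at 16 h, and 8.16, 8.83 and 8.01 at 30 h (-1.09, SE 0.20, adjusted p = 0.00181). Gsr, which regenerates reduced glutathione, read 6.58, 6.79 and 6.74 in heart-beating donors, 6.68, 6.83 and 6.72 at 4 h, 6.60, 6.55 and 6.47 at 16 h, and 5.54, 5.76 and 5.86 at 30 h (-0.98, SE 0.09, adjusted p = 1.6e-05). In both, the 30 h arrays lay below all others. Oplah, the 5-oxoprolinase of the glutathione cycle, rose by 0.61 (SE 0.17, adjusted p = 0.0209; lost without heart-beating donor 2, 0.58, or 3, 0.62, or animal 2, 0.42, or 3, 0.55, of 30 h, or with only the groups compared, 0.61). Dpep1, a dipeptidase of glutathione conjugates, fell by 0.21 (adjusted p = 0.0386), a call lost without heart-beating donor 1 or 2, animal 3 of 16 h, or animal 2 or 3 of 30 h (-0.21 to -0.18), or with the variance trend or only the groups compared (-0.21 each). At 16 h Gss, glutathione synthetase, rose by 0.26 (adjusted p = 0.0423), a call lost without any heart-beating donor or 4 h animal or animal 1 or 2 of 16 h (0.23 to 0.27), and with cyclic loess (0.20), a further quantile normalization (0.18) or the variance trend (0.26). Of 17 membrane-bound glutathione transferases and other conjugating enzymes, none rose and 7 fell at 30 h, with a median of -0.27. As3mt, which methylates arsenic, fell by 0.94 (SE 0.14, adjusted p = 0.000566), Acsm1, an acyl-CoA synthetase, by 0.49 (SE 0.09, adjusted p = 0.00187), and the microsomal enzymes Mgst3 and Mgst2 by 0.53 and 0.59 (adjusted p = 0.00205 and 0.0108). The N-acetyltransferase gene Nat1 was called lower already at 16 h (-0.38, adjusted p = 0.047), a call lost without heart-beating donor 1 (-0.27) or 3 (-0.37), any animal of 4 h (-0.38) or 16 h (-0.41 to -0.32), or animal 3 of 30 h (-0.38), and with median centring (-0.35), the variance trend (-0.38) or only the groups compared (-0.38). Gss and Nat1 were named after their values were seen.

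Of 4 deconjugating hydrolases, Arsa, a lysosomal sulfatase, rose at 30 h by 0.39 (SE 0.09, adjusted p = 0.00849), while Arsb (0.25), the steroid sulfatase Sts (-0.29) and the beta-glucuronidase Gusb (0.08) were not called. Of 8 exporters of conjugates, 2 rose and 1 fell. Abcc3, which pumps conjugates across the basolateral membrane into blood, read 7.15, 7.77 and 7.71 in heart-beating donors, 7.43, 7.35 and 7.68 at 4 h, 7.47, 8.23 and 8.15 at 16 h, and 8.86, 8.77 and 8.48 at 30 h, a rise of 1.16 (SE 0.20, adjusted p = 0.00139). Abcc2, its counterpart at the bile canaliculus, read 10.63, 10.41 and 10.63 in heart-beating donors, 9.97, 10.25 and 9.97 at 4 h, 11.28, 11.14 and 11.45 at 16 h, and 9.99, 10.41 and 10.10 at 30 h. Its 16 h arrays stood above all others, with a rise of 0.73 (SE 0.12, adjusted p = 0.006), and the difference at 4 h was -0.49 (adjusted p = 0.564). Its fall of 0.39 at 30 h (adjusted p = 0.0381) was lost without heart-beating donor 1 (-0.35) or 3 (-0.35), animal 1 of 16 h (-0.39), or animal 1 (-0.30) or 3 (-0.36) of 30 h, and with median centring (-0.39), a further quantile normalization (-0.25) or only the groups compared (-0.39). Abcc6 rose by 0.47 (SE 0.10, adjusted p = 0.0057), and Abcc4 was not called (0.14).

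Of 12 regulators of these genes, 2 rose and 3 fell at 30 h. Nfe2l2, which encodes NRF2, read 9.93, 9.51 and 9.71 in heart-beating donors, 9.20, 9.72 and 9.61 at 4 h, 9.12, 9.09 and 9.18 at 16 h, and 8.72, 9.13 and 8.78 at 30 h. It fell by 0.84 at 30 h (SE 0.14, adjusted p = 0.00127) and by 0.59 at 16 h (SE 0.14, adjusted p = 0.0344), the latter lost without heart-beating donor 1 (-0.48) or 3 (-0.59) or any animal of 16 h (-0.61 to -0.56), or with median centring (-0.56). Keap1, its inhibitor, rose by 0.25 at 30 h (adjusted p = 0.0365), but its other probe set was called lower, and the rise was lost without heart-beating donor 2 (0.21) or 3 (0.26) or any animal of 30 h (0.24 to 0.26), and with cyclic loess or a further quantile normalization (0.21 each), the variance trend (0.25), array weights (0.24) or only the groups compared (0.25). Hnf4a read 10.44, 10.38 and 10.22 in heart-beating donors, 10.35, 10.12 and 9.93 at 4 h, 10.96, 11.04 and 10.86 at 16 h, and 11.08, 11.28 and 10.96 at 30 h. It rose by 0.61 at 16 h (adjusted p = 0.00876; lost without heart-beating donor 3, 0.54, or animal 2 of 16 h, 0.57), and by 0.76 at 30 h (SE 0.11), where 1 of its 2 other probe sets was called lower. Rxra, the partner of CAR and PXR, fell by 0.40 (SE 0.11, adjusted p = 0.0192; lost without heart-beating donor 1, -0.39, or 2, -0.40, or animal 1, -0.29, or 3, -0.38, of 30 h, or with only the groups compared, -0.40).

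**Figure D3:**
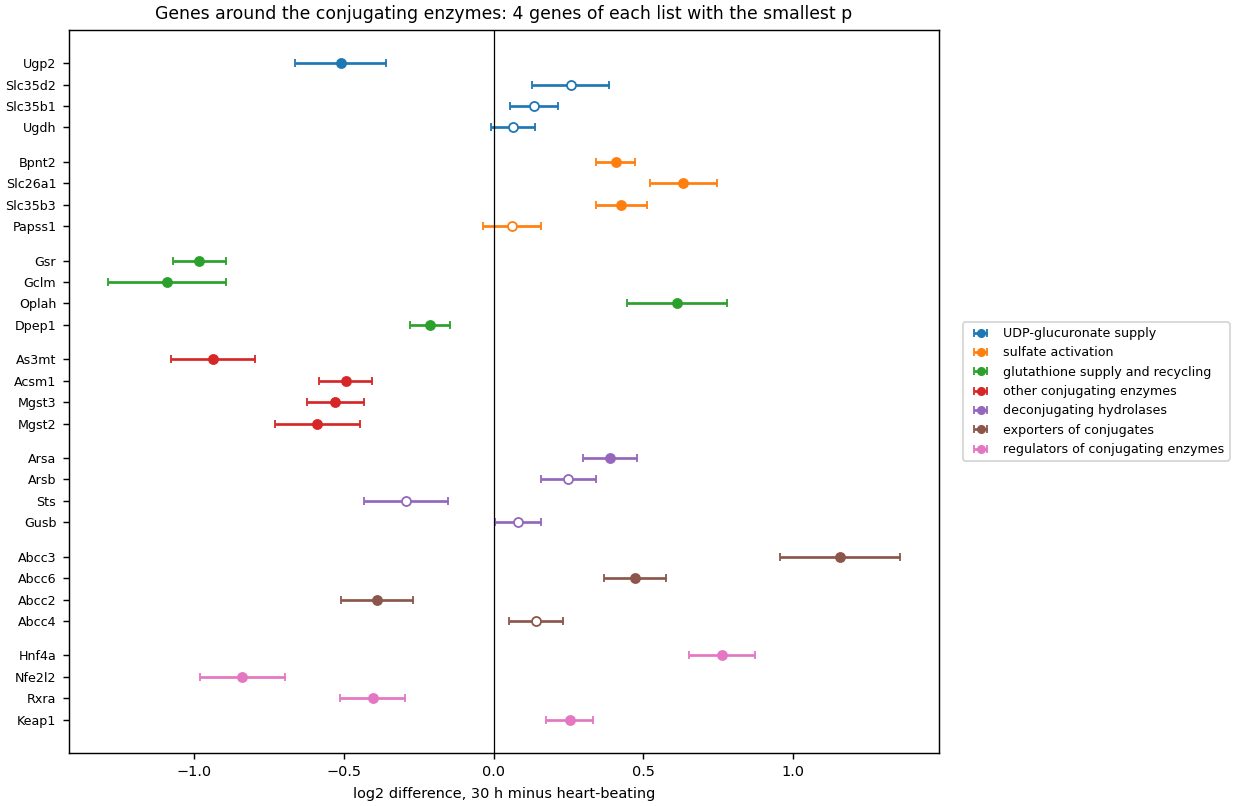
Log2 difference at 30 h minus heart-beating donors (x axis) for the 4 genes of smallest p in each of the 7 lists around the conjugating enzymes (y axis, coloured by list), by the brightest probe set of each gene. Filled points were called at adjusted p under 0.05 and bars are standard errors; Abcc3 has the highest value and Gclm the lowest.

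With the Gapdh 3' to 5' difference added to the fit as a covariate, an alternative chosen after the data were seen, none of the 47 was called at 16 or 30 h, and over all 31042 probe sets the same fit called 70 at 16 h and 0 at 30 h, so these counts say nothing particular to the 47. The sign turned in 8 of the 13 called at 30 h, and the median standard error over the 47 went from 0.10 to 0.34.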

How the data were processed

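The unit is a log2 signal for each probe set, as deposited, from 12 arrays, with 3 different donor animals in each group named by the labels. RMA and limma are the tools in the submitters' processing notes; their settings and the genome build were not stated there. Array medians ran from 5.83 to 5.90, so a value is relative to its own array, and the number of arrays limits the precision.

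The table held 31099 probe sets, and 57 controls were left out. Of the other 31042, 20826 had 1 gene symbol, 436 several and 9780 none. RefSeq gave current names and gene order for 20758 of the first. limma 3.58.1 (lmFit, eBayes) in R 4.3.3 was run on 12 arrays with a mean for each group and no filter, giving 8 residual and 4.93 prior degrees of freedom. Differences between probe sets of 1 gene (6609 pairs) were fitted the same way, and neighbouring genes were compared with exact permutation tests in scipy 1.17.1. The fit was first tested on simulated data for 30 h against heart-beating donors. It recovered 58 of 100 probe sets moved by 0.5 log2 and 95 of 100 moved by 1, with 11 false calls. The simulated noise was normal and of the same size in every group, and no other probe set was moved. In the data 6130 probe sets were called at 30 h and the 30 h arrays spread more. The simulated counts therefore do not give the recovery or false calls of the real comparison.

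The members, gene lists and comparisons were chosen with earlier results of these data known. The naming rule took called probe sets without overlap of arrays, up to 10 rises and 10 falls against heart-beating donors and up to 5 of each between times. It added the brightest probe set of each enzyme class, other probe sets of those genes, and the 4 genes of smallest p at 30 h in each list. Further members are given to account for all 47. Promoter windows were found for 37 of the 43 genes.

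The alternatives were median centring, cyclic loess, a further quantile normalization, the upper 50% of probe sets by mean signal, the brightest probe set of each gene, a variance trend with robust fitting, weights for arrays, only the groups compared, the replicate block and leaving out each array. Chosen after the data were seen were the Gapdh covariate and a fit on the 9 arrays without 30 h.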

Additional observations from a re-analysis of the deposited data

How the results depend on the processing

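Of 64 called differences of named genes, tried in 1422 alternatives, 1167 kept direction and call, 233 kept the direction and lost the call, and 22 turned sign. Many alternatives left out an array of a group outside the comparison, which leaves the difference as it was and cannot turn its sign. Most of these genes were also named for their calls or small p. The 1167 therefore do not measure how firm the calls are. Of 131 not called, 68 alternatives gave a call in the same direction, and none gave a call in the other direction. In 151 alternatives the sign turned without a call. The 4 h counts were 0 in each alternative. Among the limits are 3 arrays a group, signals relative to each array, and dim probe sets that carry little signal over background. Other limits are stated above, among them RNA integrity, which cannot be told apart from time after death, and the untested part of other cell types.

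Counts that moved are given as higher and lower, beside 1 and 4 at 16 h, 2 and 11 at 30 h, 3 and 7 from 4 to 16 h, and 2 and 7 from 16 to 30 h. The number called higher at 16 h was 2 with median centring, with only the groups compared and without the 30 h arrays, 3 in the upper 50% of probe sets and with array weights, and 0 with cyclic loess. The number called lower at 16 h was 10 with array weights and 9 with only the groups compared or without the 30 h arrays. At 30 h the number higher was 5 with cyclic loess or a further quantile normalization and 1 with array weights. From 4 to 16 h the number lower was 4 with median centring. From 16 to 30 h the number higher was 1 with median centring, the variance trend or only the groups compared, and 4 after a further quantile normalization, and the number lower was 2 with only the groups compared. With cyclic loess or a further quantile normalization, 1 of the 4 pairs of probe sets of 1 gene was called at 30 h, and in the upper 50% of probe sets 1 of the 1 pair that could be tested. The cause of these moves was not tested.

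Leaving out 1 array gave 0 to 3 higher and 1 to 8 lower at 16 h, 2 to 4 and 10 to 12 at 30 h, 1 to 4 and 2 to 8 from 4 to 16 h, and 1 to 2 and 3 to 8 from 16 to 30 h, and 0 to 1 called pairs at 16 h and at 30 h.

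The animals' numbers do not pair the groups: deviations of same-numbered arrays correlated at -0.27 to 0.11 (18 pairs) and those of different numbers at -0.23 to 0.24 (36 pairs). With the replicate block, 0 were higher at 16 h and 1 from 16 to 30 h, and the other counts were 4 lower at 16 h, 2 and 11 at 30 h, 2 and 5 from 4 to 16 h, and 6 lower from 16 to 30 h. The block ended the calls of Gstp1 (0.59), Nfe2l2 (-0.59), Gss (0.26) and Nat1 (-0.38) at 16 h, of Abcc2 (-0.39) and Keap1 (0.25) at 30 h, of Ugt2b35 (0.25), Gstm7 (-0.54) and Gstz1 (-0.36) from 4 to 16 h, and of Gstm5 (-0.22) and Sult1b1 (0.25) from 16 to 30 h.

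With the Gapdh covariate, 0 members were called in either direction at 16 h, at 30 h and from 16 to 30 h, and 1 in each direction from 4 to 16 h. Over all 31042 probe sets this fit called 70 at 16 h, 0 at 30 h, 8 from 16 to 30 h and 1302 from 4 to 16 h. The signs it turned at 30 h were those of Ugt2b35 (-0.070), Ugt2a1 (0.64), Sult1a1 (0.98), Gstm2 (0.36), Gsta4 (0.33), Sult2a2 (0.81), Gsto1 (0.52), the brighter Sult2b1 probe set (0.030), Ugp2 (0.87), As3mt (0.48), Mgst3 (0.40), Mgst2 (0.16), Arsa (-0.20), Abcc3 (-0.092), Abcc2 (0.46) and Nat1 (0.10). It also turned Gstm2 at 16 h (0.016) and from 16 to 30 h (0.35), Gsta4 from 16 to 30 h (0.042), and the other Sult2b1 probe set (0.029), Sult2a2 (0.066) and Gstz1 (0.013) from 4 to 16 h.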
